A study of Bos taurus with 6 samples.

Results

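The insulin-like growth factor (IGF) genes were compared between Luxi cattle (L) and Shandong Black cattle (B) by RNA-Seq of the longissimus dorsi, the long back muscle that gives the loin. The set held 10 genes, all found by name among 18010 genes: the ligands IGF1 and IGF2, the receptors IGF1R, IGF2R and INSR, the substrate IRS1 and the binding proteins IGFBP3, IGFBP4, IGFBP5 and IGFBP6. Their level was the gene FPKM, the coverage per aligned gigabase summed over the transcripts of a gene, which is a level per transcript length. There were 3 animals of each breed, all 18 months old, with 1 library for each animal. The study describes Shandong Black cattle as a line bred from Japanese Black, Luxi and Bohai Black cattle, so it has Luxi ancestry itself, and its methods give a different company as the source of each breed, so breed and source cannot be told apart.

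IGF1 and IGF2 are secreted peptides that promote growth of muscle and survival of its cells. Both signal through the tyrosine kinase IGF1R, and IGF2 also through a form of the insulin receptor INSR, while IGF2R carries IGF2 to the lysosome. Active receptors phosphorylate IRS1, which recruits PI3K and thereby AKT and mTOR complex 1, and the binding proteins hold the ligands outside the cell and raise or lower their access to the receptors.

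The libraries rested on 14.1 to 14.6 gigabases of aligned sequence in Shandong Black cattle and 17.5 to 17.99 in Luxi cattle. A gene was tested where its FPKM averaged 1 or more in either breed, and called where its adjusted p in limma was under 0.05 and its log2 fold change reached 1 in size. Of 9781 genes tested, 251 (2.57%) were called, 151 of them higher and 100 lower in Luxi cattle. Over these 9781 genes the log2 fold change had a median of 0.13, which became 0.017 with size factors, with which 115 genes were called higher and 149 lower. Animals of the breeds did not overlap in 20.0% of genes in the higher direction and 9.13% in the lower direction. XIST, the RNA that coats the inactive X chromosome, had an FPKM of 4.83 to 14.04 in Shandong Black cattle, 0.207 in Luxi animal 3 and was listed at 0 in the other two. The labels used here give no sex, so sex and breed cannot be told apart, here or in any comparison below. None of the 8 muscle fibre markers was at 0 in any animal, but Luxi animal 1 stood apart with the lowest ACTA1 (12237 FPKM, against 32188 to 54910 in the other animals) and the highest RGS5, a gene of mural cells of vessels (131 against 8.22 to 18.7). In such bulk tissue, fewer cells of a type and less RNA per cell cannot be told apart.

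Of the 10 genes, all of which passed the filter on FPKM, 1 was called, beside 2.57% of all genes tested: IGFBP5 was higher in Luxi cattle. In 4 of the 10, IGF2, IRS1, IGFBP5 and IGFBP6, every Luxi animal was above every Shandong Black animal, and in 0 of the 10 was it the reverse, beside 20.0% and 9.13% of all genes tested. The median log2 fold change of the set was 0.14, beside 0.13 for the whole table.

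**Figure D1:**
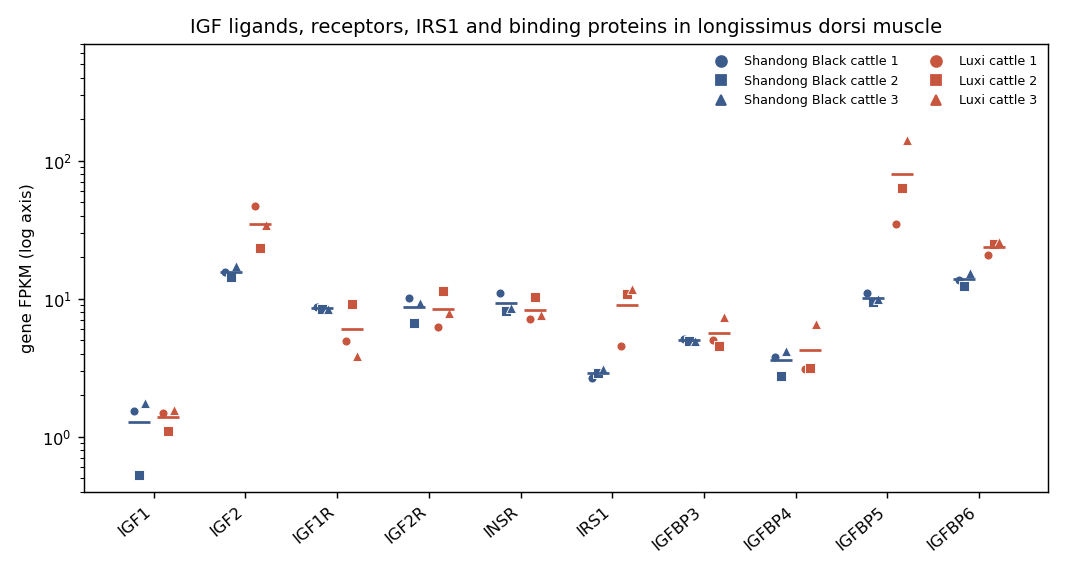
Gene FPKM (log axis) of the 10 genes in each animal, with a horizontal bar at the mean of each breed and one symbol per animal. IGF2, IRS1, IGFBP5 and IGFBP6 are separated between the breeds, while the other genes overlap.

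IGF2 was the ligand with the higher level. The gene lies on chromosome 29 (ARS-UCD1.2, plus strand, 49395173 to 49422469). Its FPKM was 15.7, 14.3 and 17.1 in Shandong Black animals 1 to 3, and 47.0, 23.2 and 34.4 in Luxi animals 1 to 3. All 3 Luxi animals were higher, with Luxi animal 1 at the top, and the breeds did not overlap. The log2 fold change was 1.05 ± 0.28 (SE, n = 3 a breed, on the log2(FPKM + 1) scale), which did not pass the test (limma, adjusted p = 0.0966). Permuting the animals of IGF2 gave p = 0.1 (exact, two-sided), which is as low as this design can go, and the other 3 genes without overlap gave the same value.

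The 4 reference transcripts of IGF2 differ in their first exon. The one that starts at 49413667 carried 65.7 to 70.1% of the reference FPKM in Shandong Black cattle and 56.8 to 79.2% in Luxi cattle. The one that starts at 49415285 was less even among Luxi cattle, with an FPKM of 18.8, 5.01 and 1.22 in animals 1 to 3, against 2.53 to 3.17 in Shandong Black cattle. In Luxi animal 3 alone, a further transcript of 5 exons was assembled on the IGF2 exons, with an FPKM of 8.11, and without it this animal had 26.3.

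The breed difference of IGF2 was not even along the gene. Over the 3213 bases of the last exon, the depth per aligned gigabase was 15.1 to 17.1 in Shandong Black cattle and 25.2 to 52.4 in Luxi cattle, a ratio of means of 2.29. Over the 163-base exon upstream it was 34.8 to 46.2 against 44.9 to 74.3, with a ratio of 1.56, and over the 149-base exon 23.5 to 31.7 against 29.4 to 51.9, with a ratio of 1.53. Both short exons thus overlapped between the breeds, and the last exon did not. These exons were singled out after their values were seen, and no test was run on them.

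H19, the imprinted noncoding RNA next to IGF2, had an FPKM of 56.5, 28.7 and 53.7 in Shandong Black cattle and 23.6, 26.8 and 47.5 in Luxi cattle. The breeds overlapped, and its log2 fold change of -0.50 ± 0.37 (SE) did not pass the test (limma, adjusted p = 0.464).

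IGF1 was the lowest of the 10 genes in both breeds. This gene of chromosome 5 (minus strand, 66185922 to 66264134) had an FPKM of 1.53, 0.528 and 1.76 in Shandong Black cattle and 1.48, 1.10 and 1.55 in Luxi cattle. Shandong Black animal 2 was the only low value, and the breeds overlapped. Its log2 fold change was 0.10 ± 0.25 (SE), with a 95% interval of -0.49 to 0.70 (limma, adjusted p = 0.839), and was -0.16 without Shandong Black animal 2. Most of its FPKM, 79.3 to 99.3% by animal, lay on a single transcript of 825 bases. Averaged over all annotated IGF1 exons, the depth was 0.0553 to 0.304, so the level of IGF1 beside the other genes rests on that short transcript.

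IGF1R is the receptor through which both ligands signal. The gene on chromosome 21 (plus strand, 7780293 to 8080968) had an FPKM of 8.76, 8.41 and 8.47 in Shandong Black cattle and 4.90, 9.19 and 3.84 in Luxi cattle. Luxi animals 1 and 3 were below all Shandong Black animals and Luxi animal 2 was above them. The log2 fold change was -0.53 ± 0.28 (SE), with a 95% interval of -1.19 to 0.14 (limma, adjusted p = 0.32). Within the span of IGF1R, transcripts assembled on the opposite strand added up to 0.577 to 3.41 FPKM and were not counted for it.

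IGF2R, which clears IGF2, overlapped between the breeds. Its gene on chromosome 9 (plus strand, 96197493 to 96300019) had an FPKM of 10.1, 6.65 and 9.33 in Shandong Black cattle and 6.27, 11.3 and 7.81 in Luxi cattle. The animals of both breeds were intermixed. Its log2 fold change, -0.05 ± 0.26 (SE), had a 95% interval of -0.66 to 0.55 (limma, adjusted p = 0.925), and turned positive, up to 0.12, without Luxi animal 1 or without Shandong Black animal 1 or 3.

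INSR was at a level like that of IGF2R. The gene on chromosome 7 (minus strand, 16054185 to 16200521) had an FPKM of 11.05, 8.07 and 8.62 in Shandong Black cattle and 7.14, 10.2 and 7.67 in Luxi cattle. The breeds overlapped. For INSR the log2 fold change was -0.14 ± 0.21 (SE), with a 95% interval of -0.63 to 0.36 (limma, adjusted p = 0.739).

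The annotation of INSR holds a 36-base exon, the eleventh from the 5′ end (chromosome 7, 16090586 to 16090621). The receptor form without this exon, IR-A, binds IGF2 with high affinity, and the form with it, IR-B, mainly binds insulin. Of the reference transcripts, 2 hold the exon and 2 lack it. Those with the exon carried 74.7, 71.7 and 87.0% of the INSR FPKM in Shandong Black animals 1 to 3 and 66.8, 57.5 and 45.5% in Luxi animals 1 to 3. Every Luxi animal was below every Shandong Black animal. The FPKM without the exon was 2.79, 2.29 and 1.12 in Shandong Black cattle and 2.37, 4.33 and 4.18 in Luxi cattle, which overlapped. This split was chosen after its values were seen and has no test. It rests on how StringTie divided reads among transcripts that share most exons, and reads across the exon's junctions were not analysed here. In every animal but Luxi animal 2, nearly all FPKM with the exon lay on a transcript of 9280 bases. Forms without it have 6412 and 6771 bases and other 3′ ends, so exon and transcript end cannot be told apart. In Luxi animal 2, a form of 6448 bases with the exon had an FPKM of 4.31, against at most 0.00059 in the other animals.

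**Figure D2:**
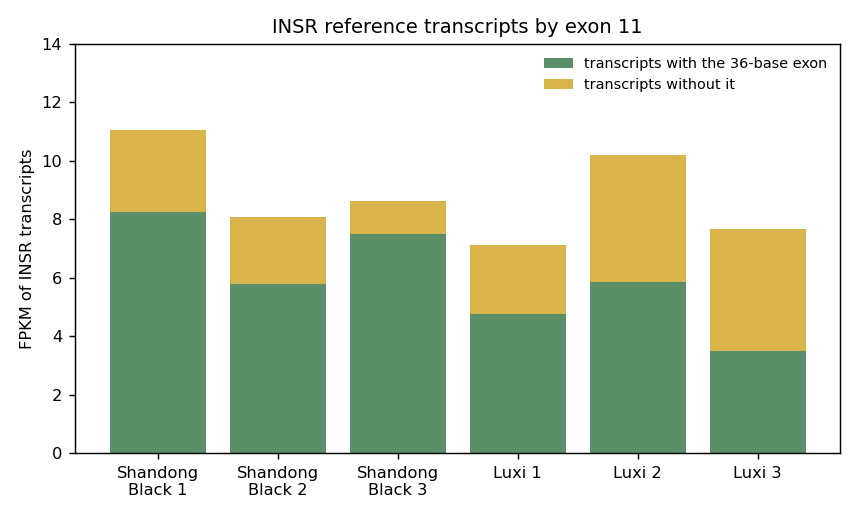
FPKM of the INSR reference transcripts in each animal, as stacked bars of those with and those without the 36-base exon. The part with the exon is 71.7 to 87.0% of the bar in Shandong Black cattle and 45.5 to 66.8% in Luxi cattle.

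IRS1, the docking protein that links the receptors to PI3K, was higher in every Luxi animal. The gene on chromosome 2 (minus strand, 114924912 to 114993390) had an FPKM of 2.67, 2.88 and 3.07 in Shandong Black cattle and 4.57, 10.8 and 11.8 in Luxi cattle. Luxi animal 1 was the nearest to the other breed. For IRS1 the log2 fold change was 1.29 ± 0.32 (SE), which did not pass the test (limma, adjusted p = 0.0822). IRS1 passed in only 2 of 19 alternatives. These were the fit without Luxi animal 1 (1.67, adjusted p = 0.0115) and deposited TPM values (adjusted p = 0.0465). It did not pass without any other animal (adjusted p of 0.156 to 0.246) or in the remaining alternatives (0.0784 to 0.172).

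IGFBP5, a binding protein that adheres to the matrix around cells, showed the largest difference of the set. The gene lies on chromosome 2 (minus strand, 104656175 to 104680027). Its FPKM was 10.97, 9.47 and 9.92 in Shandong Black animals 1 to 3 and 35.0, 63.8 and 142 in Luxi animals 1 to 3. The Shandong Black animals lay close together, while the Luxi animals were all higher and far apart. Means were 10.1 ± 0.773 and 80.1 ± 55.1 (SD, n = 3 each). The log2 fold change was 2.64 ± 0.47 (SE), the 26th largest rise among all genes tested, and it passed the test (limma, adjusted p = 0.0368). The call was lost without Shandong Black animal 1, 2 or 3 (adjusted p = 0.134, 0.0869 and 0.155) or Luxi animal 2 (0.0955). It was also lost with no filter on FPKM (0.0997) and with the replicate number as a block (0.0555). The log2 fold change stayed between 2.12 and 3.11 in all alternatives.

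The difference in IGFBP5 was seen over most of the gene. A reference transcript of 983 bases carried 89.6 to 93.1% of its FPKM and one of 6341 bases the rest. Over the stretches of exon that both share, the ratio of mean depth, Luxi over Shandong Black, was 7.66 for the 364 bases at the 5′ side, 7.12 for the next 230, 8.98 for the next 120 and 8.25 for the last 269, and the breeds did not overlap in any of them. Over the 4361 bases at the 3′ end, found in the long transcript, the depth was 0.288 to 1.12 against 2.86 to 14.9. Over its 946 bases at the 5′ end, it was 0.37 to 2.95 against 0.795 to 7.12, which overlapped. Averaged over all exons, IGFBP5 had a depth of 2.20 to 2.41 in Shandong Black cattle and 7.47 to 33.3 in Luxi cattle, so its level beside other genes, more than its breed difference, depends on the transcript length used.

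**Figure D3:**
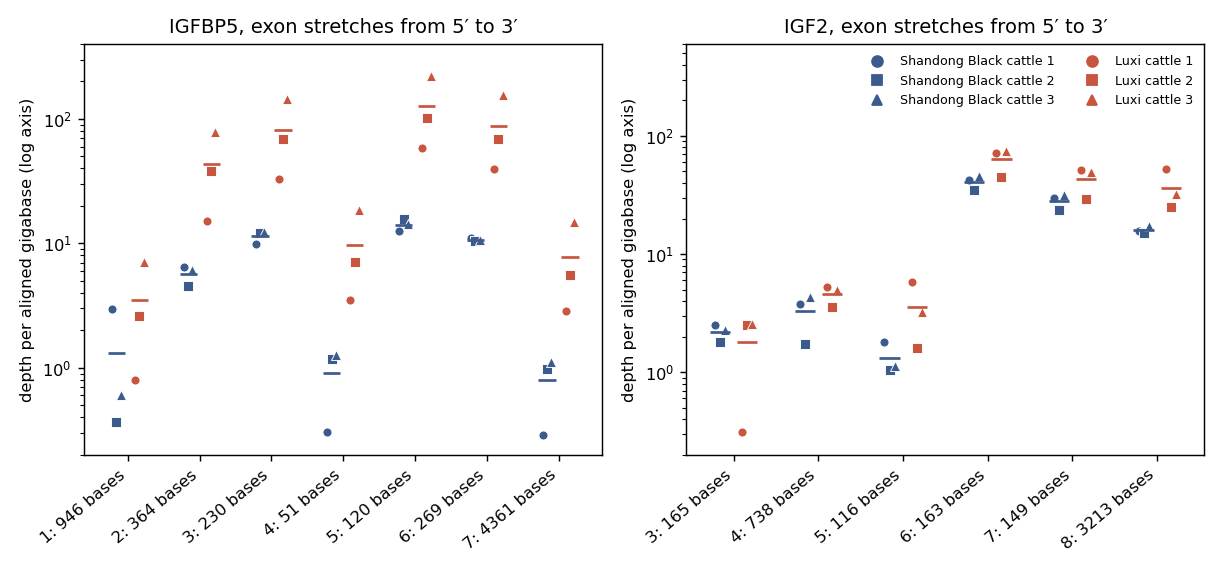
Depth per aligned gigabase (log axis) over stretches of exon of IGFBP5 and IGF2, numbered from 5′ to 3′ with their length in bases, with one symbol per animal and a bar at each breed mean. Stretches 2, 3, 5 and 6 of IGFBP5 are separated between the breeds by ratios of 7.12 to 8.98, while in IGF2 the last exon is separated and stretches 6 and 7 overlap. The first 2 stretches of IGF2 had a depth under 0.14 in every animal and are left out.

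IGFBP6, which prefers IGF2 over IGF1, was also higher in every Luxi animal. This gene of chromosome 5 (minus strand, 26878961 to 26883026) had an FPKM of 13.6, 12.4 and 15.5 in Shandong Black cattle and 20.8, 24.7 and 25.6 in Luxi cattle. The gap between the breeds was wider than the spread within either. The log2 fold change of 0.74 ± 0.20 (SE) did not pass the test (limma, adjusted p = 0.0966).

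IGFBP3 and IGFBP4 overlapped between the breeds. IGFBP3, the main carrier of IGFs in blood, lies on chromosome 4 (plus strand, 76116379 to 76124833), and its FPKM was 5.12, 4.93 and 4.90 in Shandong Black cattle and 5.02, 4.52 and 7.35 in Luxi cattle. IGFBP4, which restrains IGF action, lies on chromosome 19 (plus strand, 40672669 to 40684257), and its FPKM was 3.79, 2.75 and 4.15 in Shandong Black cattle and 3.08, 3.14 and 6.56 in Luxi cattle. Luxi animal 3 was the highest of all in both genes, and the other animals overlapped. The log2 fold change of IGFBP3 was 0.13 with a 95% interval of -0.34 to 0.59, and that of IGFBP4 was 0.16 with one of -0.50 to 0.81 (limma, adjusted p = 0.75 and 0.78). Without Luxi animal 3 they were -0.052 and -0.14, and IGFBP3 was also at -0.0082 with size factors.

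**Figure D4:**
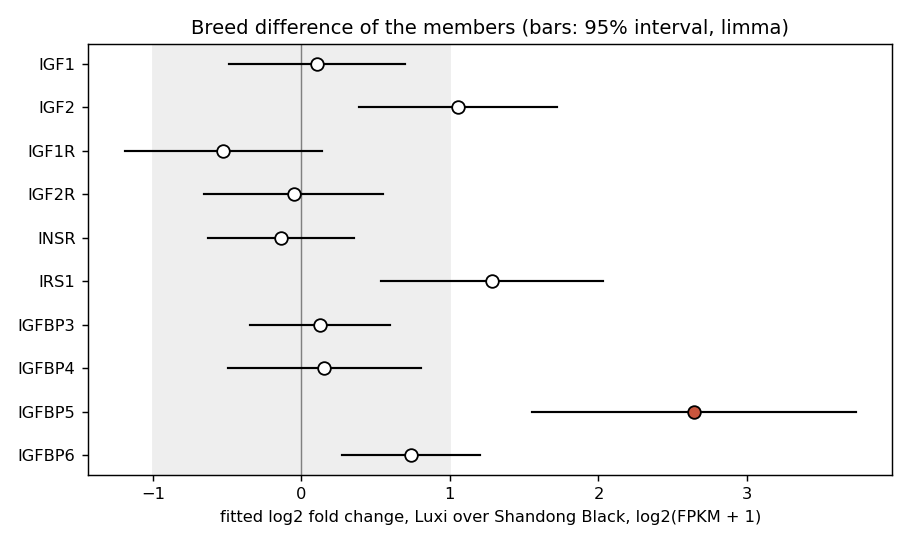
Fitted log2 fold change of each gene, Luxi over Shandong Black cattle, on the log2(FPKM + 1) scale, with 95% intervals from limma. The filled point marks IGFBP5, the gene called, and the grey band covers changes of less than 1 in size. Intervals of IGF2, IRS1, IGFBP5 and IGFBP6 lie above 0, without adjustment for the number of genes.

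The mean levels of the 10 genes gave an order in each breed. In Shandong Black cattle it ran from IGF2 (mean FPKM 15.7) through IGFBP6, IGFBP5, INSR, IGF2R, IGF1R, IGFBP3, IGFBP4 and IRS1 (2.87) to IGF1 (1.27). Neighbours whose ranges over the animals overlapped were IGF2 with IGFBP6, IGFBP5 with INSR, INSR with IGF2R, IGF2R with IGF1R, and IGFBP4 with IRS1. Within each Shandong Black animal IGF2 was still above IGFBP6, while the other pairs changed order from animal to animal. In Luxi cattle IGFBP5 came first (80.1), followed by IGF2 (34.9), IGFBP6 (23.7) and IRS1 (9.05), then IGF2R, INSR, IGF1R, IGFBP3 and IGFBP4, and IGF1 was again last (1.38). There, only IGFBP6 with IRS1 and IGFBP4 with IGF1 were neighbours without overlap of their ranges. Within each Luxi animal, INSR was also above IGF1R and IGFBP3 above IGFBP4, while the other neighbours changed order. Both orders depend on the transcript lengths used. Averaged over all exons, the mean depth in Luxi cattle was 26.2 for IGF2 and 18.3 for IGFBP5. In Shandong Black cattle it was 2.87 for IRS1 and 2.34 for IGFBP5.

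Ratios within an animal do not depend on the scaling of its library, but they do depend on the transcript lengths used. IGFBP5 to IGFBP3 was 2.14, 1.92 and 2.03 in Shandong Black cattle and 6.96, 14.1 and 19.2 in Luxi cattle, with no overlap (exact permutation test, p = 0.1). Averaged over all exons, IGFBP5 was below IGFBP3 in Shandong Black cattle, at 2.20 to 2.41 against 4.90 to 5.12. The breed difference in the log2 ratio was then 2.56, against 2.61 by FPKM. IGF2 to IGF1 was 10.2, 27.0 and 9.71 against 31.7, 21.0 and 22.3, and overlapped (exact permutation test, p = 0.3). IGF1R to INSR was 0.793, 1.04 and 0.982 against 0.686, 0.901 and 0.501, and overlapped (exact permutation test, p = 0.2). With 3 ratios tested and 0.1 as the smallest p that the design allows, none could pass a threshold of 0.05.

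The share of IGFBP5 among binding proteins overlapped between the breeds, unlike its level. Of the summed FPKM of IGFBP1 to IGFBP7, IGFBP5 took 17.4, 17.7 and 14.8% in Shandong Black cattle and 16.7, 47.8 and 61.2% in Luxi cattle. Luxi animal 1 thus lay within the range of the other breed. These shares also depend on the transcript lengths used. IGFBP7, a related secreted protein with low affinity for IGFs that is abundant in vessels, had an FPKM of 146 in Luxi animal 1, against 36.9 and 50.04 in the other Luxi animals and 23.4 to 32.1 in Shandong Black cattle. IGFBP1 and IGFBP2 stayed below 0.4 in every animal and were not tested.

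The genes whose levels followed IGFBP5 most closely over the 6 animals were OSR1, B3GAT3 and SNRPE. OSR1 is a transcription factor of connective tissue progenitors, B3GAT3 an enzyme of glycosaminoglycan synthesis and SNRPE a core protein of the spliceosome. Pearson's r of log2(FPKM + 1) was 0.995, 0.995 and 0.994, and all 6 points share the split into breeds. OSR1 had an FPKM of 0.562 to 0.853 in Shandong Black cattle and 1.64, 2.42 and 3.79 in Luxi animals 1 to 3. None of these genes was called (limma, adjusted p = 0.0621, 0.0789 and 0.0881).

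Another 80 genes of the pathway were listed, 10 of which were not analysed here and 8 of which did not reach the filter on FPKM. Of the 62 tested, 5 (8.06%) were called higher and 0 lower in Luxi cattle, beside 1.54% and 1.02% of all genes tested. Animals did not overlap in 16 of the 62 in the higher direction and in 1 in the lower, beside 20.0% and 9.13%. The count of calls rested on single animals: it was 0 without Shandong Black animal 3, 1 without animal 1 and 3 without animal 2, and 10, 2 and 2 without Luxi animals 1, 2 and 3.

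Among the other binding proteins, their proteases and the inhibitors of these, 2 of 4 genes tested were called, both higher in Luxi cattle. With IGFBP7, 3 of the 4 were higher without overlap. Of all genes tested, 1.54% were called higher and 20.0% were higher without overlap. HTRA1, a secreted protease that can cleave IGF binding proteins, had an FPKM of 10.3, 14.3 and 11.3 in Shandong Black cattle and 32.6, 40.1 and 44.3 in Luxi cattle. The rise was 1.63 ± 0.23 on the log2 scale (SE, limma, adjusted p = 0.0209). STC1, an inhibitor of the protease that cleaves IGFBP4 and IGFBP5, had 1.39, 0.904 and 0.997 against 3.14, 4.54 and 5.18, with a log2 fold change of 1.32 ± 0.20 (SE, limma, adjusted p = 0.0275). The breeds were apart in both genes. HTRA1 lost its call without Shandong Black animal 1 or 3 or Luxi animal 2 or 3 (adjusted p of 0.0635 to 0.132). STC1 lost its call without any animal but Luxi animal 1 (0.0644 to 0.139). It also lost it with no filter on FPKM (0.0744) and with the replicate number as a block (0.0599).

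Of 17 genes of PI3K, AKT and FOXO, 1 was called, higher in Luxi cattle, beside 1.54% of all genes tested. Without overlap, 5 were higher and 1 lower, beside 20.0% and 9.13% of all genes tested. FOXO1, a transcription factor that AKT keeps out of the nucleus, had an FPKM of 8.24, 4.73 and 5.53 in Shandong Black cattle and 38.2, 36.04 and 30.5 in Luxi cattle. All Luxi animals were several times higher, and the log2 fold change was 2.35 ± 0.24 (SE, limma, adjusted p = 0.00964). The call was lost without Shandong Black animal 3 (adjusted p = 0.0857). PIK3R1, a regulatory subunit of PI3K, was at 6.97 to 7.61 against 11.1 to 15.1 and did not pass the test (limma, adjusted p = 0.068).

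Of 13 genes of mTOR complex 1 and its control, 2 were called, both higher in Luxi cattle, beside 1.54% of all genes tested. Both inhibit the complex. In all, 3 of the 13 were higher without overlap, beside 20.0% of all genes tested. The third, RPS6KB2, was at 2.89 to 4.34 against 4.48 to 9.68 and did not pass the test (limma, adjusted p = 0.171). DDIT4, induced by stress, had an FPKM of 6.71, 9.32 and 8.51 in Shandong Black cattle and 58.0, 68.6 and 41.8 in Luxi cattle. The rise of 2.62 ± 0.25 on the log2 scale (SE) had the smallest p of the pathway lists (limma, adjusted p = 0.00934). DEPTOR, which binds mTOR itself, had 1.66, 1.85 and 1.32 against 4.24, 3.66 and 6.94, with a log2 fold change of 1.15 ± 0.23 (SE, limma, adjusted p = 0.0491), and it was called in 4 of 18 alternatives. DEPTOR lost its call with no filter on FPKM (adjusted p = 0.119) and with the replicate number as a block (0.0883). It also lost it with TPM, size factors, quantile normalization, no trend, reference transcripts alone, StringTie loci or depth over all exons (0.0526 to 0.0871). DDIT4 lost its call without Shandong Black animal 1 or 3 (adjusted p = 0.0601 and 0.0735), and DEPTOR without any animal but Luxi animal 1 (0.0775 to 0.204).

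**Figure D5:**
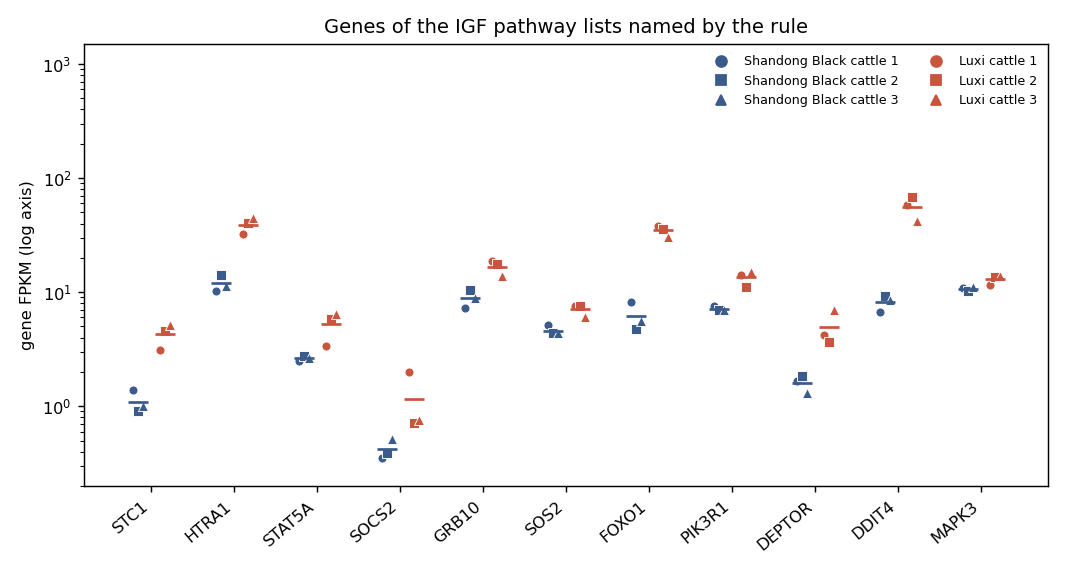
Gene FPKM (log axis) in each animal of the pathway genes that were called or had the largest breed difference without overlap in their list, with bars at the breed means. STC1, HTRA1, FOXO1, DEPTOR and DDIT4 were called, and the other 6 did not pass the test.

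In the remaining lists no gene was called, beside 2.57% of all genes tested. Genes higher in Luxi cattle without overlap made up 16.7% of the adaptors and brakes, 33.3% of the growth hormone axis and 11.1% of RAS and ERK. Of all genes tested, 20.0% were higher without overlap. Of 12 adaptors and brakes of the receptors, 2 had breeds without overlap: GRB10, an adaptor that restrains INSR and IGF1R, was at 7.31 to 10.4 FPKM in Shandong Black cattle and 13.9 to 18.7 in Luxi cattle (limma, adjusted p = 0.0849), and SOS2, an activator of RAS, at 4.36 to 5.10 against 6.01 to 7.61 (adjusted p = 0.142). Of 6 genes of the growth hormone axis, STAT5A was at 2.50 to 2.78 against 3.40 to 6.43 and SOCS2, a brake on the growth hormone receptor, at 0.351 to 0.517 against 0.71 to 1.99 (limma, adjusted p = 0.125 and 0.249). The direction of STAT5A, a transcription factor of growth hormone signalling, depended on assembled transcripts. Its reference transcripts were listed at 0 in all 3 Luxi animals, and with reference transcripts alone it was lower in Luxi cattle (limma, adjusted p = 0.00823). MAPK3, the kinase ERK1, was the 1 gene of 9 of RAS and ERK without overlap, at 10.3 to 11.01 against 11.6 to 13.9 (limma, adjusted p = 0.433).

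Markers of other cells differed between the breeds as well. Their counts without overlap stand beside 20.0% of all genes tested that were higher and 9.13% that were lower in Luxi cattle without overlap. The summed FPKM of 8 markers of fibroblasts and fibro-adipogenic progenitors was 168 to 213 in Shandong Black cattle and 422 to 552 in Luxi cattle, with 4 markers higher and 1 lower without overlap. COL3A1, a fibrillar collagen, had the widest gap of them, 20.4 to 23.2 against 145 to 194 FPKM. COL1A1 was at 17.5 to 36.5 against 74.0 to 121, and COL1A2 at 7.12 to 12.6 against 30.1 to 43.7. The gap in the sum lay mostly in these collagens. PDGFRA was also higher without overlap, DPT was the lower one, and FBN1, LUM and DCN overlapped. Of 8 fat cell markers, 6 were lower and 1, GPD1, higher without overlap. Their sums of 206 to 241 against 96.6 to 234 overlapped. GPD1 alone was at 31.4 to 54.7 against 76.2 to 182, and it held most of each Luxi sum. FABP4, a carrier of fatty acids, was at 48.9 to 78.1 against 0.956 to 7.003. Summed endothelial markers were 20.9 to 27.9 against 29.0 to 90.5, and mural markers 36.8 to 44.1 against 23.0 to 170, with Luxi animal 1 the highest in both. Muscle fibre markers overlapped in all 8 genes, with sums of 45503 to 56026 against 23071 to 71950. ACTA1 held most of each sum, so the sums say little about the myosin heavy chains. Among these, MYH2 was at 8.19 to 209 against 188 to 1284 and MYH1 at 0.114 to 11.6 against 0.903 to 59.7. MYH7 was at 235 to 2097 against 120 to 479. Luxi animal 1, highest in vessel markers, had the highest IGF2 and the lowest IGFBP5 and IRS1 of its breed. The part of the cells marked by any of these lists in the differences of IGF2, IRS1, IGFBP5 and IGFBP6 was not tested. Summed tendon markers were 9.997 to 47.7 against 0.906 to 6.30, with COMP, a protein of cartilage and tendon matrix, at 9.06 to 44.3 against 0.259 to 2.83. Summed macrophage markers were 30.9 to 42.2 against 16.3 to 32.3, with CSF1R and C1QA lower without overlap. No blood, Schwann cell or satellite cell marker was without overlap, and each of these lists summed to at most 18.4 FPKM in any animal.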

How the data were processed

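RNA of 6 longissimus dorsi samples was sequenced by the authors. They used Fastp for trimming, HISAT for alignment to the ARS-UCD1.2 genome, and StringTie for assembly of each library (1.3.3b per the file headers, which differs from the version in the methods), guided by the NCBI annotation, with strand. The deposited files list transcripts with coverage (mean read depth), FPKM and TPM, without counts. The ratio of deposited coverage to FPKM gave the aligned gigabases. A gene's FPKM was the sum of its reference transcripts and of unnamed assembled transcripts that lay by 50% or more of their bases on its exons and on its strand. Transcripts in no gene held 21.6 to 29.8% of the FPKM of a library. Exon depth was the deposited exon coverage per aligned gigabase.

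Genes whose FPKM averaged 1 or more in either breed were tested by limma 3.58.1 (R 4.3.3) with trend on log2(FPKM + 1), so fold changes of low genes are understated, and p-values were adjusted by Benjamini-Hochberg over all 9781 genes. The study's Cuffdiff needs alignments and was not run. Permutation tests (scipy 1.17.1) were exact. On simulated data, 58% of genes changed by 1.5 on the log2 scale and 91% of those changed by 3 were called.

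The 10 genes, the pathway and marker lists and the tests were chosen with earlier results of these data known. Named besides the 10 genes were called pathway genes, up to 2 per list with the largest change without overlap, and the 3 genes most correlated with IGFBP5. H19, IGFBP7, RPS6KB2, XIST and single cell type markers were named outside this rule, after their values were seen. Of the pathway and marker lists, IGFALS, PAPPA2, INS, INSRR, IGF2BP1, IGF2BP3, IRS4, SH2B2, PIK3CD, AKT1S1, PAX7, VWF, HBM, ALAS2 and SOX10 were not analysed here. Chromosome names came from the gene table of ARS-UCD2.0, in which 91.2% of the gene names were found, and coordinates are those of the files. Alternatives were a pseudocount of 0.1, other filters, TPM, size factors, quantile normalization, no trend, a replicate block, other gene definitions, no fold threshold and leaving out each animal.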

Additional observations from a re-analysis of the deposited data

How the results depend on the processing

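The number of the 10 IGF genes called, 1 as reported, was 0 with no filter on FPKM and with the replicate block, 2 on TPM and 0 to 2 when each animal was left out. The number of other pathway genes called, 5 as reported, was 3 with no filter, with a mean FPKM of at least 5 and with the replicate block, and 0 to 10 when each animal was left out. Over all genes, the 251 calls became 63 with no filter, 134 with a mean FPKM of at least 5, 163 with reference transcripts alone, 135 with the replicate block and 3 to 593 without 1 animal. Log2 fold changes turned sign for IGF1 without Shandong Black animal 2 (-0.16, range without 1 animal -0.16 to 0.27), for IGF2R without Shandong Black animal 1 (0.055) or 3 (0.0027) or Luxi animal 1 (0.12, range -0.26 to 0.12), for IGFBP3 with size factors (-0.0082), quantile normalization (-0.034) or without Luxi animal 3 (-0.052, range -0.052 to 0.25), for IGFBP4 without Luxi animal 3 (-0.14, range -0.14 to 0.31), and for STAT5A with reference transcripts alone or by StringTie locus (-1.87 in both). The cause was not tested. Depth averaged over all exons, an alternative chosen after seeing the data, kept IGFBP5 called with a log2 fold change of 2.29 (adjusted p = 0.0467). IGF1 was not tested in that alternative, nor IGF1 and IGFBP4 with a mean FPKM of at least 5, since they were under the filter. Of the called pathway genes, STC1 and DEPTOR were also under the filter of 5, so the count of 3 there leaves them out untested.

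Animals with the same number are different animals. Their deviations from the breed means correlated by 0.0745 to 0.0869, and each animal correlated best with its own number. The deviations of the 3 animals of a breed sum to 0, so these correlations depend on each other. The design gives no pairing, and pairing was not tested. With the replicate block, IGFBP5, STC1 and DEPTOR were not called (adjusted p = 0.0555, 0.0599 and 0.0883). With 3 animals a breed and no read counts, small differences were not detectable, and the median SE of the log2 fold change was 0.23.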
